A study of Mus musculus with 4 samples.

Results

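Serpina3f and Serpina3g are neighbouring mouse genes for serpins, proteins that inhibit proteases. The deposited tables name 14812 genes, and the values described here belong to the rows of these 2 genes, matched by symbol. They were chosen with their low input levels in the knockout already known, so those levels are a description, and the p-values the authors give for them support nothing here. The study measured m6A, a methyl mark on adenosines of RNA, in bone-marrow-derived macrophages grown from C57BL/6 marrow with macrophage colony-stimulating factor (M-CSF) for 7 days and then co-cultured with MC38, a mouse colon carcinoma line, for 24 h. One genotype was Mettl3fl/fl (WT), in which Mettl3 carries loxP sites, and the other was LysM-cre, Mettl3fl/fl (cKO), in which the same alleles are joined by a Cre recombinase under the lysozyme M promoter, active in myeloid cells. Each genotype has 1 library of RNA fragments enriched by an antibody to m6A (IP) and 1 of the fragments that went into that step (input), 4 libraries in all. With 1 library per group there is no spread between cultures, no test was run, and every difference below compares these libraries only. The labels do not say how many mice gave marrow.

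Serpins trap proteases with an exposed reactive centre loop near the carboxyl end of the protein: the protease cuts the loop and is caught as the inhibitor changes shape. Which proteases a serpin stops depends largely on that loop, and it is the loop that differs most among the copies of Serpina3 that multiplied in rodents. Serpina3g, also called Spi2A, is known to restrain lysosomal cathepsins and to be induced in activated macrophages and lymphocytes, by interferon-gamma and through NF-kB. Serpina3f is a close copy of it that is less well characterised. Mettl3 is the methyltransferase of the complex that places most m6A on messenger RNA, often near stop codons and in 3' UTRs.

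The genes lie on the plus strand of chromosome 12 (mm10), Serpina3f (ENSMUSG00000066363) at chr12:104214544-104221129 and Serpina3g (ENSMUSG00000041481) at chr12:104236245-104241939. There are 15115 bases between them, and 1 other annotated gene, a processed pseudogene on the minus strand, lies in that gap. The transcript used for Serpina3f has 6 exons and 2207 bases, with 260 in the 5' UTR, 1338 coding bases with the stop codon and 609 in the 3' UTR. That of Serpina3g has 5 exons and 1803 bases, with 443, 747 and 613 bases in the same parts. Its annotated coding part is shorter, and 437 of its annotated 5' UTR bases align to coding sequence of Serpina3f, with 92.4% identity. Over all 1790 aligned bases 88.7% were identical, with 87.4% where both are coding and 87.6% between the 3' UTRs.

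Where both copies are coding, they are least alike near the end of the coding sequence. In windows of 50 coding bases of Serpina3f, the lowest identity, 44.0%, was reached 69 to 19 bases before the end of the stop codon. The next separate low point, 54.0%, began 243 bases before the end of the stop codon, and it is shown because it is the most divergent coding stretch outside the extreme 3' end. Capitals mark bases that are not identical at the aligned place, and the Serpina3g stretch is shorter, at 47 bases, because of a gap. The first stretch is chr12:104220272-104220321 and the second chr12:104241099-104241145, both on the plus strand of mm10. The reading frame and the place of the reactive centre loop were not determined here.

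Serpina3f: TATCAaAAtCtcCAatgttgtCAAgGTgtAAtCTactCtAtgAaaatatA

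Serpina3g: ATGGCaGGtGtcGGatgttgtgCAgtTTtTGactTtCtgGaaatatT

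**Figure D1:**
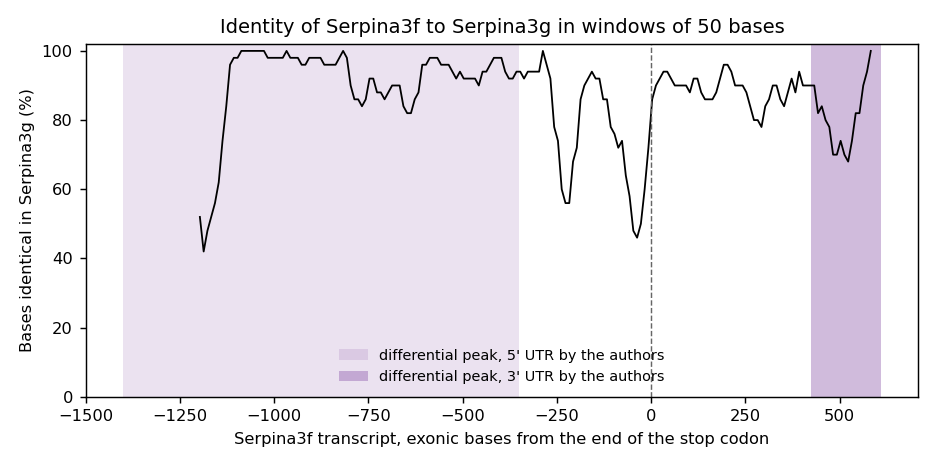
Percent of bases in windows of 50 Serpina3f bases that are identical in Serpina3g (vertical axis), along the spliced Serpina3f transcript counted from the end of the stop codon (horizontal axis, bases), with the differential m6A peaks of Serpina3f shaded. Apart from the left edge, where the alignment begins, the curve dips to 56.0% and 46.0% in the last coding bases, left of the dashed stop line, while the shaded 3' UTR peak lies in sequence that is 85.1% identical over its aligned bases.

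Identity this high bears on how far reads can be told apart. Reads were paired and 150 bases long, per the labels' protocols, and 0 words of 150 bases in either transcript occur in a transcript of another gene. At 100 bases, 3.65% of the Serpina3f words and 4.64% of the Serpina3g words do, and at 50 bases 10.9% and 16.0%. The 5' part of Serpina3g is the most repeated: 60.3% of the 50-base words of its first WT peak occur in other genes. The longest identical run between Serpina3f and Serpina3g is 119 bases. Runs were longer with Serpina3i, another gene of the cluster, at 132 bases for Serpina3f and 135 for Serpina3g. How the authors treated reads that match more than 1 place is not given in the sources used here, so all values of these genes, and above all those of the 5' peaks of Serpina3g, are uncertain where counting could split such reads.

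Transcripts of both serpins were lower in the cKO input library. Serpina3f had 19.0 FPKM (fragments corrected for transcript length and for the size of the library) in the WT input and 5.10 FPKM in the cKO input. Serpina3g had 31.1 FPKM in the WT input and 10.96 FPKM in the cKO input. For each gene the WT library is thus the high one, and even the lower WT value, that of Serpina3f, lies above the higher cKO value, that of Serpina3g. In order, the levels ran from Serpina3g in the WT through Serpina3f in the WT and Serpina3g in the cKO to Serpina3f in the cKO. Since 1 library stands behind each level, no neighbours in that order can be said to differ beyond a spread.

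The WT level of Serpina3f was 3.73 times the cKO level, and that of Serpina3g was 2.84 times. As differences in log2(FPKM + 1), cKO minus WT, these are -1.71 for Serpina3f and -1.42 for Serpina3g, against a median of -0.02 over the 6079 genes whose input FPKM averaged at least 1. Input differences of other genes below are on the same scale. Input values were at hand only for genes with a differential peak. Ranks, shares and medians over genes or all genes, for input levels, cover those genes alone. Serpina3f was the 5th lowest and Serpina3g the 9th lowest of the differences over the 6079 genes. Among the 3537 genes with a mean of at least 5 FPKM they were the 2nd and 4th lowest. Of the 6079 genes, 26 or 0.428% were at least 2-fold lower in the cKO input on this scale, and these 2 are among them. This is the contrast the genes were chosen on, so nothing is read from it. The authors' deposited table gives log2 ratios of -1.90 with p = 0.00539 for Serpina3f and -1.50 with p = 0.0259 for Serpina3g, each with an adjusted p (q) of 1. That table marks both as changed, as it does for 25 genes that are lower, 0.342% of the 7307 with an input value.

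**Figure D2:**
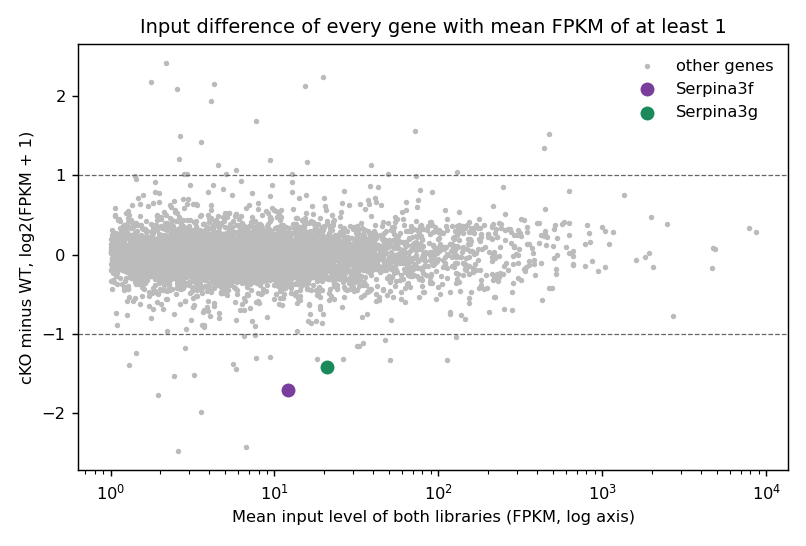
Difference in input level, cKO minus WT in log2(FPKM + 1) (vertical axis), against the mean input level of both libraries in FPKM (horizontal log axis), for the 6079 genes with a mean of at least 1 FPKM. Serpina3f, at -1.71, and Serpina3g, at -1.42, lie below the dashed line of a 2-fold fall, among few other genes of like level.

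Serpina3g stayed the more abundant copy in both libraries, per transcript length. Its FPKM was 1.64 times that of Serpina3f in the WT and 2.15 times in the cKO. Summed over both genes, the level was 50.1 FPKM in the WT and 16.1 FPKM in the cKO. In the WT input, Serpina3f lay above 78.6% of genes and Serpina3g above 86.0%, while in the cKO input they lay above 42.9% and 66.3%. Serpina3f was thus below the middle of the ranking in the cKO, and Serpina3g above it. A lower level in a culture can mean fewer cells that make the transcript or less of it per cell, and these cannot be told apart.

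Genes next to them in the ordering help place the size of the fall. At a mean of at least 5 FPKM the lowest difference was that of Rarres2, the gene for the chemoattractant chemerin, at 12.02 FPKM against 1.42, WT against cKO, a difference of -2.43. Serpina3f came next. Shortly after Serpina3g came C1qa, a subunit of complement C1q made by macrophages, at 73.1 and 28.4 FPKM and a difference of -1.34.

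The genes whose pair of input levels was most like each serpin were sought by distance in the plane of the WT and cKO values of log2(FPKM + 1), over 2 libraries. For Serpina3g the nearest was Gbp3, a guanylate-binding protein induced by interferons, at 26.4 FPKM in the WT and 9.92 in the cKO (distance 0.26). It was followed by Gbp7 (0.39), Acsl1, an acyl-CoA synthetase (0.44), Fcna, the lectin ficolin A (0.46), and Gbp6 (0.48). For Serpina3f the nearest was Ppp1ccb, at 13.9 FPKM in the WT and 5.05 in the cKO (0.43). Then came Mertk, a receptor for the uptake of dying cells (0.72), Irgm1, an interferon-inducible GTPase (0.72), Slamf8 (0.73) and Zbp1, a sensor of nucleic acids (0.77). The serpins themselves lay 1.19 apart, farther than any of these. With only 2 libraries, such likeness describes levels and nothing more.

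Other serpins lay nearer to the median of all genes. Of 17 other serpin genes named in the tables, 10 had an input value and 6 a mean of at least 1 FPKM. Of these 6, 3 were higher and 3 lower in the cKO, their median difference was -0.13 against -0.02 over all genes, and 0 were at least 2-fold lower. Serping1, the inhibitor of complement C1, had 6.52 FPKM in the WT and 12.8 in the cKO, for a log2(FPKM + 1) difference of 0.87. Serpinh1, a collagen chaperone, had 34.9 and 54.6 FPKM, a difference of 0.63. The lowest was Serpinb8 at 5.04 and 3.52 FPKM, a difference of -0.42. Serpinb6a, an intracellular serpin with a WT level of 19.0 FPKM like that of Serpina3f, had 15.4 FPKM in the cKO, for a log2(FPKM + 1) difference of -0.28.

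**Figure D3:**
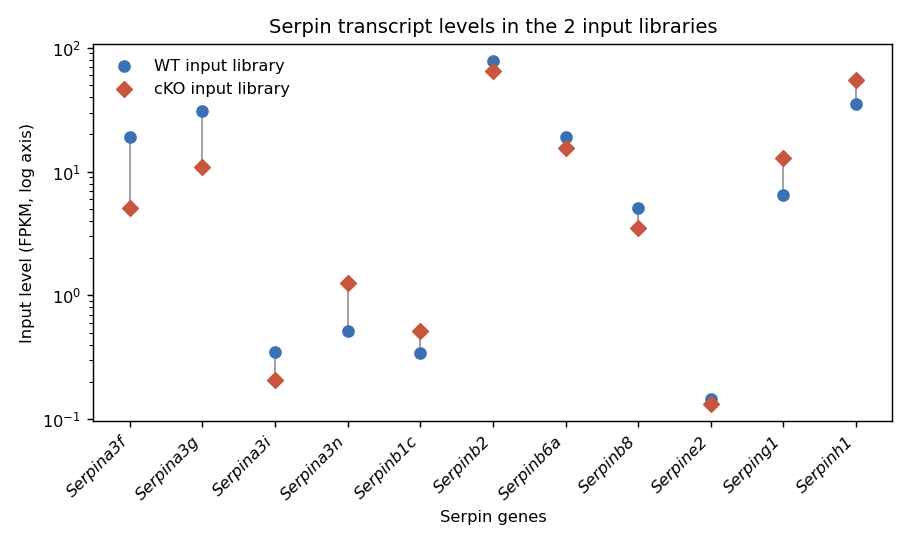
Input level in FPKM (vertical log axis) of the serpin genes drawn (horizontal axis), with the WT library as a circle and the cKO library as a diamond joined by a line. Serpina3f (19.0 to 5.10 FPKM) and Serpina3g (31.1 to 10.96 FPKM) have the longest lines downward among the serpins drawn above 1 FPKM, while Serping1 (6.52 to 12.8 FPKM) has a line upward.

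Within the cluster on chromosome 12, 2 of the 22 other listed genes were named in the tables, both at low levels. Serpina3i had 0.35 FPKM in the WT and 0.21 in the cKO. Its peak value, as log2, was 3.45 for the WT and 2.42 for the cKO, and its differential peak fell from 3.40 to 1.47 with an adjusted p of 0.0256 in the authors' deposited table. Serpina3n had 0.51 FPKM in the WT and 1.27 in the cKO, the direction opposite to that of Serpina3f and Serpina3g. Its differential peak in the 3' UTR read -3.88 for the WT and 1.18 for the cKO, with an adjusted p of 0.0992. For the other 20 cluster genes no peak and no input value were listed under their symbols.

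The listed cathepsins and other inhibitors of cathepsins that had a value lay close to the median of all genes. Of 17 listed proteases 8 had a value, all of them cathepsins. Ctsd, Ctsg, Elane, Prtn3, Gzma, Gzmb, Prss57, Plau and Plat had none. Of the 8, 5 were higher and 3 lower in the cKO, the median difference was 0.05 and 0 changed by 2-fold. The lowest was Ctsk (cathepsin K) at 568 FPKM in the WT and 424 in the cKO, for a log2(FPKM + 1) difference of -0.42, and the highest was Ctsh (cathepsin H) at 71.3 and 89.4 FPKM, a difference of 0.32. Ctsc, which activates granule serine proteases, had 40.7 and 44.4 FPKM, and Ctsa had 318 and 295. The cystatins Cst3, at 517 and 502 FPKM, and Cstb, at 534 and 531 FPKM, were the 2 of 5 listed cathepsin inhibitors with a value.

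Genes of the pathways known to induce Serpina3g were mostly lower in the cKO input as well. Of 28 listed genes of the interferon-gamma response, 20 had a mean of at least 1 FPKM. Of these 20, 18 were lower, 2 were higher and 3 were at least 2-fold lower, with a median difference of -0.44, against 54.2% of all 6079 genes below 0 and a median of -0.02. Gbp3 was lowest at a difference of -1.32. Irf1, a transcription factor induced by interferons, had 47.7 FPKM in the WT and 21.4 in the cKO, for a log2(FPKM + 1) difference of -1.12. Gbp5 had 10.6 and 4.73 FPKM (-1.01) and Irgm1 18.6 and 9.04 FPKM (-0.96). All 7 of the 12 listed NF-kB genes with a value were lower, with a median of -0.27. The cytokine Il6 had 9.15 FPKM in the WT and 3.96 in the cKO, for a log2(FPKM + 1) difference of -1.03, and Il1b had 258 and 178 FPKM, a difference of -0.53. Nfkb2, a subunit of NF-kB, had 16.8 and 12.5 FPKM (-0.40), and its inhibitor Nfkbia had 114 and 94.4 (-0.27). Serpina3f and Serpina3g fell further than any gene in either list. That largely follows from how the 2 were chosen, so nothing is read from it. The lists were drawn up with earlier results of these data known and are not independent of them.

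Cell type markers moved between the same 2 input libraries. Of 8 macrophage markers 7 had a value, and their summed level was 4871 FPKM in the WT and 3311 in the cKO. Without Lyz2 the sums were 1479 and 1330. Lyz2, the lysozyme M gene whose promoter drives Cre in the cKO, alone had 3393 and 1980. Of these 7, 5 were lower in the cKO and 2 were higher, Fcgr1 at 11.1 FPKM in the WT against 15.8 and Itgam at 179 against 188. Besides Lyz2, the lower ones included Mertk, at 11.6 FPKM in the WT against 6.29, and Adgre1, at 220 against 162. Cd14, at 362 against 324, and Cd68, at 695 against 634, were lower by less. All 4 fibroblast markers with a value, of 5, were higher in the cKO, at 107 FPKM summed in the WT and 193 in the cKO. Krt19, the 1 of 5 epithelial markers with a value, had 7.05 and 10.8 FPKM. S100a8, the 1 of 5 neutrophil markers with a value, had 12.3 and 13.7 FPKM, and the T and NK cell and B cell lists summed to below 1 FPKM in each library. No dendritic cell marker had a value, and no marker with a value was at 0. The part of these markers in the levels of Serpina3f and Serpina3g was not tested. Mettl3 itself has no input value here, with 2 peaks in the WT list, 4 in the cKO list and 0 differential peaks, so the deletion could not be checked.

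The regions before the 2 genes were compared because both genes were lower in the cKO input. RefSeq (GRCm38.p6) gave promoter sequence for both, and the 250 bases before the start are printed, on the plus strand. For Serpina3f these are chr12:104214294-104214543 and for Serpina3g chr12:104235897-104236146. Capitals mark TTCNNNGAA, the form bound by STAT factors, which reads the same on both strands.

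Serpina3f: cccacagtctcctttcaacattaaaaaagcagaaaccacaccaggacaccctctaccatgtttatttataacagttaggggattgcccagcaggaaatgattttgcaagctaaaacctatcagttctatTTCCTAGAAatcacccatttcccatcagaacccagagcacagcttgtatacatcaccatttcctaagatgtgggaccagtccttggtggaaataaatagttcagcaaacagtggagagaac

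Serpina3g: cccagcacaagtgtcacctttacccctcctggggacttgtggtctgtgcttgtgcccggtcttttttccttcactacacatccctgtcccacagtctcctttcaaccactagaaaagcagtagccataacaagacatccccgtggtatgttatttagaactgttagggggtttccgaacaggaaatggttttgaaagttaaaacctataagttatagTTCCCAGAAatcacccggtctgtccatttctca

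Each promoter held TTCNNNGAA at 1 place, beginning 121 bases before the first RefSeq start in Serpina3f and 33 bases before the RefSeq start in Serpina3g. These distances depend on the start used: Serpina3f has another RefSeq start, 210 bases after the first base of the motif, and the GENCODE start of Serpina3g given above lies 131 bases after it. The 2 places align to each other, in a stretch of 152 aligned bases of which 82.9% are identical. Of 32817 RefSeq promoters of the same length, 7.01% hold this motif on either strand. A pair of GAAA separated by any 2 bases, the form bound by interferon regulatory factors, was found in neither window, and 2.97% of promoters hold it. A match describes letters only and is not a site of binding.

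m6A enrichment was found on both genes in both genotypes. A peak is a stretch where the IP library exceeds the input library, and its value is the authors' log2 of IP over input. The WT list held 2 peaks in Serpina3f and 3 in Serpina3g, and the cKO list 2 in each, where the median gene with a peak has 2 in each list. The spans given run from the outer ends of a peak and can hold introns, so exonic bases are given with them. Most values lay below the median of their list, which was 1.22 over all WT peaks and 1.30 over all cKO peaks. The exceptions were the first Serpina3f peak of the WT, at 1.46, and the second Serpina3g peak of the cKO, at 1.42.

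In the WT, the first Serpina3f peak spanned chr12:104215222-104219525 and had a log2 of 1.46, above 62.8% of WT peaks, with an adjusted p of 1.6e-111. The authors annotate it to the 5' UTR, but 988 of its 1125 exonic bases are coding. The second, at chr12:104220915-104221129, lay at the 3' end of the gene in the 3' UTR and had a log2 of 1.05 with an adjusted p of 3.81e-11. Serpina3f thus had its stronger WT enrichment over the coding part.

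On Serpina3g the WT enrichment lay between 0.71 and 1.07 along the gene. The first peak, chr12:104237221-104238268, had 331 exonic bases, all in the annotated 5' UTR, and a log2 of 1.02 with an adjusted p of 1.85e-43. The second, chr12:104238294-104239183, had 200 exonic bases, 180 of them coding, and was the weakest at 0.71 with an adjusted p of 1.24e-15, above 12.2% of WT peaks. The third, chr12:104241735-104241934, lay in the 3' UTR and had a log2 of 1.07 with an adjusted p of 2.6e-18.

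In the cKO, the first Serpina3f peak, chr12:104216894-104220239, covered 1050 exonic bases, all coding, at a log2 of 1.07 with an adjusted p of 3.66e-14. The second, chr12:104220390-104220789, spanned the stop codon, with 125 coding and 275 3' UTR bases, at 0.82 with an adjusted p of 0.000307. The list held no peak over the last bases of the Serpina3f 3' UTR, where the WT peak lay. On Serpina3g, the first cKO peak, chr12:104236245-104238168, had 298 exonic bases in the 5' UTR and a log2 of 1.18 with an adjusted p of 4.75e-19. The second, chr12:104241635-104241934, lay in the 3' UTR at 1.42 with an adjusted p of 1.96e-18 and was the strongest cKO peak of the pair.

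Peaks shared by at least 1 base on the same strand were 3 of the 5 WT peaks and 3 of the 4 cKO peaks, next to 73.2% of all WT peaks and 71.3% of all cKO peaks. The long Serpina3f peak was lower in the cKO, at 1.07 against 1.46. On Serpina3g the 5' peak was 1.18 in the cKO against 1.02 in the WT, and the 3' UTR peak was 1.42 against 1.07. The peaks without a partner were the Serpina3f 3' UTR peak and the second Serpina3g peak of the WT, and the stop codon peak of Serpina3f in the cKO.

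**Figure D4:**
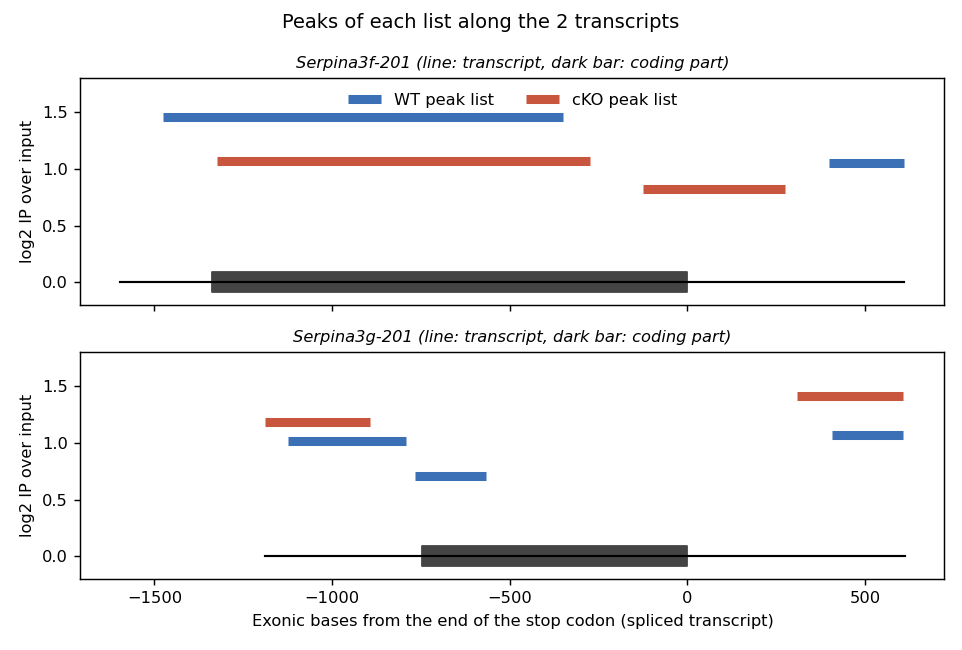
Peaks of the WT and cKO lists as bars at their log2 IP over input (vertical axis) along the spliced Serpina3f transcript (top) and Serpina3g transcript (bottom), in exonic bases from the end of the stop codon (horizontal axis). At the right end, Serpina3f has a WT bar at 1.05 and no cKO bar, and Serpina3g has a WT bar at 1.07 below a cKO bar at 1.42.

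The authors' deposited table of differential peaks, which lists only peaks with p below 0.05, holds 3 entries for the pair of genes, and their directions differ. The long Serpina3f peak, chr12:104215297-104219525, read 1.41 in the WT and 1.003 in the cKO, or -0.41 as cKO minus WT, to which the authors' deposited table gives p = 0.00798 and an adjusted p of 0.0527. The Serpina3f 3' UTR peak, chr12:104220940-104221129, read 1.12 in the WT and 0.32 in the cKO, or -0.80 as cKO minus WT, in the authors' deposited table with p = 0.0221 and an adjusted p of 0.106. In linear terms IP exceeded input there by 2.18-fold in the WT and 1.25-fold in the cKO. The Serpina3g 3' UTR peak, chr12:104241710-104241934, read 0.93 in the WT and 1.78 in the cKO, or 0.85 as cKO minus WT, in the authors' deposited table with p = 0.000103 and an adjusted p of 0.00181, or 1.91-fold and 3.44-fold. At the overlapping Serpina3g peaks of the separate lists, which have other outer ends, the same difference was 0.35, from 1.07 and 1.42.

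So both Serpina3f entries were lower in the cKO and the Serpina3g entry was higher, and of the 3 only the Serpina3g entry had an adjusted p below 0.05. Of all 10355 differential peaks 51.1% were lower, and 24.4% were higher with an adjusted p below 0.05, so neither direction is rare. Of the differential peaks in 3' UTRs, 13.6% had a lower difference than the Serpina3f peak and 19.4% a higher one than the Serpina3g peak. Whether the 2 peaks differ from each other in their change was not tested. How the IP libraries were scaled against their inputs is not given in the sources used here, so a higher ratio is not by itself more m6A per transcript.

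Opposite directions were seen at the same place of the 2 copies. Of the exonic bases of the Serpina3f 3' UTR differential peak, 98.4% align inside that of Serpina3g, and 80.4% of the Serpina3g bases align inside that of Serpina3f. Over the 181 aligned bases 154 are identical, or 85.1%. Words of 50 bases found in another gene made up 5.19% of the Serpina3f peak and 3.41% of the Serpina3g peak, and words of 100 bases 0% of each, less than along the whole transcripts.

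Other genes with a low cKO input had differential peaks in both directions. The other 24 genes at least 2-fold lower in the cKO input had 31 differential peaks, of which 15 were higher and 16 lower. In 3' UTRs alone they had 8 higher and 8 lower. Among genes that changed by less than 2-fold, 49.2% of 8641 differential peaks were higher, and 51.9% of those in 3' UTRs.

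**Figure D5:**
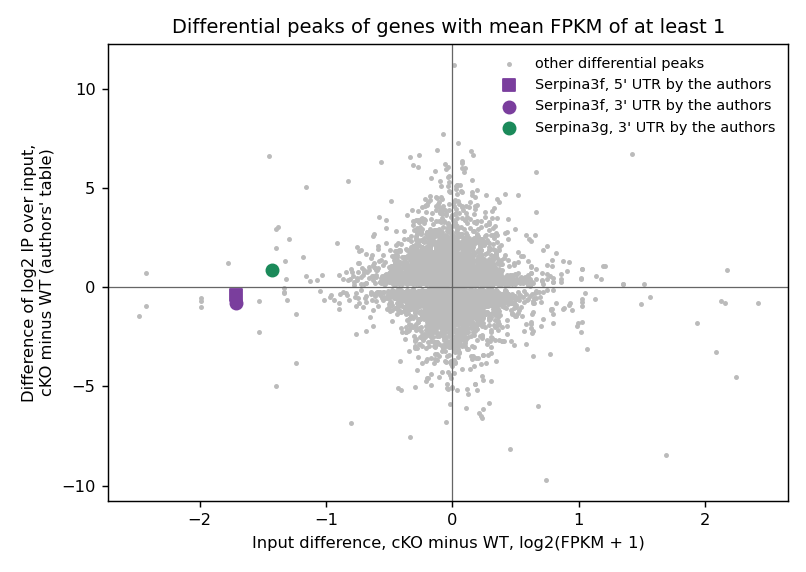
Difference of log2 IP over input, cKO minus WT in the authors' table (vertical axis), against the difference in input level, cKO minus WT in log2(FPKM + 1) (horizontal axis), for each differential peak of genes with a mean of at least 1 FPKM. The Serpina3f peaks lie at -0.41 and -0.80 and the Serpina3g peak at 0.85, all far left of the cloud at input differences of -1.71 and -1.42.

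The sequence under the 3' UTR peaks was searched for a narrow m6A motif, GGAC followed by A, C or T, on the transcript strand. A wider 5-letter set was also counted: A, G or T, then A or G, then AC, then A, C or T. Below, motif means the narrow form unless the wider set is named. Serpina3f had 9 such places, 1 in the 5' UTR, 4 coding and 4 in the 3' UTR. Serpina3g had 5, 1 coding and 4 in the 3' UTR. At 2 places the motif stands at the aligned position in both transcripts, and both are in the 3' UTR. The following windows of 29 bases show the places inside the 3' UTR peaks, with motifs in capitals, plus strand of mm10. The first pair is chr12:104220989-104221017 in Serpina3f and chr12:104241802-104241830 in Serpina3g, and the second is chr12:104221037-104221065 and chr12:104241847-104241875.

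Serpina3f, first window: cactcctaatcaGGACAgagaagtcgcct

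Serpina3g, first window: cactcctactcagaacagagtagtctttc

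Serpina3f, second window: accaaccacacaagacagatGGACAcctc

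Serpina3g, second window: accaactacgtaGGACTggtGGACAcctc

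Each 3' UTR peak therefore held 2 motifs, of which 1 was shared. The shared motif begins 543 bases after the stop codon in Serpina3f and 541 in Serpina3g. The other motif of the Serpina3f peak begins at 487, where Serpina3g has gaaca. That of the Serpina3g peak begins at 533, where Serpina3f has agaca. Neither of these is the narrow motif, but both belong to the wider set. Of that set, the WT 3' UTR peak held 7 matches in Serpina3f and 6 in Serpina3g, where peaks of like length had a median of 4. Of WT peaks of like exonic length, 48.1% held the motif and 15.9% held at least 2 for the Serpina3f peak, and 47.5% and 15.5% for the Serpina3g peak. A match is a description, not a methylated base.

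Farther up the 3' UTR the other shared motif begins 236 bases after the stop codon in both copies. It lay inside the stop codon peak that Serpina3f had in the cKO list, at chr12:104220738-104220766, and outside any peak of Serpina3g, at chr12:104241550-104241578. The windows are printed because almost the same letters lay under a listed peak in 1 copy only, in 1 genotype only. That peak covers 400 exonic bases and holds 2 motifs, so it cannot be assigned to this one.

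Serpina3f, shared upstream motif: tcagtaatgatgGGACTatacaagtttac

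Serpina3g, shared upstream motif: tcagtcatgatgGGACTgtgcaagtttac

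The long Serpina3f peak of the WT held 4 motifs, the median number for WT peaks of like exonic length, of which 97.4% held at least 1. The first and second WT peaks of Serpina3g held 0, where 66.0% and 47.5% of peaks of like length held at least 1. Of the wider set these 2 peaks held 6 and 5 matches, where peaks of like length had medians of 7 and 4.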

How the data were processed

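The members and the gene lists were chosen with earlier results of these data known. The labels give 1 library per group. The submitters' processing notes name, without role or order, mm10 as the build and edgeR, StringTie, ChIPseeker, HOMER, HISAT2 and fastp as tools. Per the file headers, peak lists hold the authors' log2 of IP over input with raw and adjusted p-values, and the differential table holds log2 values of both genotypes. The authors deposited input FPKM for 7307 genes, all with a differential peak. Depth is unknown, so no interval was computed.

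Starts count from 0 in the tables (9760 starts lay 1 below the gene start, 0 equalled it), and printed positions count from 1. Input differences used log2(FPKM + 1), which understates changes of low genes, at a mean FPKM of at least 1. Peaks were overlapped with bedtools 2.31.1. Transcripts came from GENCODE M21 and promoters from RefSeq. They were aligned with Biopython 1.88, and the scripts were tested on simulated data. Named genes were every peak of Serpina3f and Serpina3g, every cluster gene with a value, up to 4 genes per list by absolute input difference, and the 5 nearest genes per serpin. Predicted genes (Gm, Rik) and mitochondrial genes were not named. Rarres2 and C1qa were named after their values were seen, as were the genes given beside sums of markers. The values of some list genes are not reported or drawn, though counts and medians of lists hold them. A search of whole peak spans and protein sequences was not made here.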

Additional observations from a re-analysis of the deposited data

How the results depend on the processing

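Depth is unknown, and no spread between cultures limits or supports any value. No paired analysis was possible because each group has 1 library. The input difference of Serpina3f, -1.71, was -1.88 with log2(FPKM + 0.1) and -1.90 as a plain log2 ratio, and lay at -1.69 after centring on the median gene. That of Serpina3g, -1.42, ranged from -1.50 to -1.40 under the same settings. Ranks moved from 5 to 2 for Serpina3f and from 9 to 4 for Serpina3g at a mean of at least 5 FPKM. Of the 3 differential peaks, 1 was left at an adjusted p below 0.05, and 0 when an absolute difference of at least 1 was also asked. In the differential table the third WT peak of Serpina3g read 0.93 in place of 1.07, and its second cKO peak 1.78 in place of 1.42, at other outer ends. Shared peaks numbered 3 on either strand, 2 when the overlap had to cover 50% of both spans, and 3 when it had to cover 50% of the exonic bases, a setting chosen after seeing the data. Motif matches summed over the WT and cKO peaks, in which a place under peaks of both lists counts once per list (10 distinct places), went from 16 to 92 with the wider set of 5-letter motifs and stayed at 16 with any GGAC. The cause of these moves was not tested. The search of whole peak spans was not run, because the transcripts and promoter windows used here do not hold the introns.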
